A study of Homo sapiens with 8 samples.

Results

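TAGLN, which encodes the actin-binding protein transgelin, was examined together with 9 other genes of the actin cytoskeleton and of the transcription factor pathways that control it, in a count table of 23391 genes. TAGLN was picked because its level was lower in cells expressing Esrrb and higher after DY131, so its own values are a description, without a test. The other 9 genes, TAGLN2, ACTA2, CNN1, CNN2, TPM1, TPM2, MYL9, CTGF and CYR61, were picked by name as contractile genes or as known targets of serum response factor (SRF) or of YAP, and the question was how far they share the pattern of TAGLN over the 4 groups. The cells were DU145, an established human prostate cancer line, stably transfected with the empty vector pcDNA3.1-zeo (+) (DU145-pc3.1) or with the same vector carrying Esrrb (DU145-Esrrb). Esrrb is an orphan nuclear receptor, the estrogen related receptor beta, and DY131 is a synthetic ligand of Esrrb and of its relative Esrrg. Each of the 4 groups had 2 libraries, from biological replicates: DU145-pc3.1 and DU145-Esrrb without DY131, and both pools with 3 μM DY131. All cells had been through Zeocine selection, and the stable Esrrb transfectants were pooled before use (both transfected cell populations are called pools here). RNA was collected from confluent cells in medium with charcoal-stripped serum. DY131 was given to confluent cells in medium with such serum for a time not given in the sources used here. The methods of the study describe no vehicle for the untreated cells. A difference between the pools that came from transfection or selection cannot be told apart from an effect of Esrrb. This holds wherever a change is described below as with Esrrb.

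SRF drives actin and contractile genes when its partners of the MRTF family, held by monomeric actin in the cytoplasm, are set free by actin polymerization, and it drives immediate early genes such as FOS through a second set of partners. YAP and TAZ are coactivators of the TEAD factors that enter the nucleus in spread, tense cells, and CTGF and CYR61 are their most used reporter genes. TAGLN, ACTA2, CNN1 and MYL9 are best known as genes of smooth muscle, and several are also switched on in fibroblasts and in carcinoma cells that migrate.

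Promoter windows from RefSeq (GRCh38.p14), which run from 250 bases before to 50 bases after each annotated transcription start, were found for 7 of the 10 genes. They show where exact copies of 3 motifs lie close to the starts of those 7. No window was at hand for TAGLN, MYL9 or CYR61, so these genes were not searched for any of the motifs. The windows of both strands were searched for the CArG box, the element bound by SRF, for GGAATG, the core bound by TEAD factors, and for AAGGTCA, the extended half-site bound by estrogen related receptors. The CArG box was searched only in its strict form, CC followed by A or T bases alone and then GG. None of these motifs overlaps another in the stretches shown. Of all 35116 windows in the table, 1.29% held a CArG box, 14% held GGAATG and 3.92% held AAGGTCA. The 3 stretches below are the matches among the members, printed 5′ to 3′ on the strand of the gene with the motif in capitals. The stretch of CNN2 (chr19:1026507-1026540, plus strand) lies 101 to 68 bases before the start and holds a CArG box, that of CTGF (chr6:131951450-131951553, minus strand) lies 181 to 78 bases before the start and holds GGAATG 3 times, and that of ACTA2 (chr10:88952939-88952968, minus strand) lies 195 to 166 bases before the second of its annotated starts.
CNN2: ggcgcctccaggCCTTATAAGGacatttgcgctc
CTGF: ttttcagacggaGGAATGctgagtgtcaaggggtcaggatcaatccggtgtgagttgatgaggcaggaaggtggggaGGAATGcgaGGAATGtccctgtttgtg
ACTA2: gagcagaccagtGGAATGcagtggaagaga
The windows of TAGLN2, CNN1, TPM1 and TPM2 held none of the 3 motifs, and AAGGTCA was in no window of a member. A match is a description of letters and not of a bound site. Variants of the motifs were not searched, so a window without a match may still hold an element of the same kind.

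The libraries held between 7858743 and 11551690 reads counted on genes, and levels are given in cpm, the reads of a gene scaled to a common library size after TMM scaling. ESRRB itself went with the labels, with 104 and 99 reads in DU145-Esrrb, 105 and 143 in DU145-Esrrb with DY131, and between 0 and 3 in the 4 libraries of DU145-pc3.1. Scaled to library size, ESRRB was higher in DU145-Esrrb with DY131 (between 13.7 and 16.2 cpm) than in DU145-Esrrb without it (between 8.83 and 9.1 cpm). The part of this difference in the results was not tested. The 8 epithelial markers examined summed to between 3794 and 4613 cpm in every group, with KRT5 alone at 0 in 3 of the 4 groups. Single markers moved within these sums. By adjusted p in the test described below, 1 of 7 tested rose and 3 fell with DY131 in DU145-pc3.1 cells. In DU145-Esrrb cells 2 rose and 4 fell, where 37.4% and 58.7% of all tested genes changed in these comparisons. Of the 50-base windows, 41.3% in KRT8 and 31.8% in KRT18 are also found in other genes. The 12 markers of smooth muscle and fibroblasts summed to between 5.74 and 10.4 cpm, and between 4 and 6 of them were at 0 in each group, DCN among them in every group. In bulk RNA, fewer cells of a kind and less RNA per cell cannot be told apart. The 7 leukocyte and endothelial markers summed to between 65.9 and 66.2 cpm in DU145-pc3.1, 73.4 and 79.6 in DU145-Esrrb, 60.8 and 61.3 in DU145-pc3.1 with DY131, and 91.5 and 94.8 in DU145-Esrrb with DY131, with CD3E at 0 in every group. These sums moved with the groups, and their part in the results was not tested. Only 2 of the 7 markers reached 1 cpm in at least 2 libraries, so the sums rest on few genes. Of the 50-base windows of the CD68 transcript, 92.3% are also found in other genes, most of them in AC016876.2, so its reads are of uncertain origin. The DY131-treated DU145-Esrrb libraries also differed in a property of gene structure: over 13666 genes, the DY131 log2 fold change in DU145-Esrrb cells ran against the share of a transcript's 50-base windows that cross an exon junction (Spearman's rho = -0.374), whereas rho was 0.0103 for DY131 in DU145-pc3.1 cells. Values corrected for this junction share are given beside many of the results that involve those libraries, and the part of this property in the results was not tested beyond that.

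TAGLN (NM_001001522; chr11:117199321-117204782 in GRCh38, plus strand, 5 exons) was at 35.4 and 33.5 cpm in DU145-pc3.1, at 16.3 and 14.1 cpm in DU145-Esrrb, at 56.4 and 89.9 cpm in DU145-pc3.1 with DY131, and at 57.6 and 61.7 cpm in DU145-Esrrb with DY131. DU145-Esrrb was thus the lowest group and both DY131-treated groups lay above both untreated groups, with no overlap of libraries except between the treated groups. The group means were 34.4 ± 1.37, 15.2 ± 1.57, 73.2 ± 23.6 and 59.7 ± 2.9 cpm (SD, n = 2), in the same order. TAGLN was 2.26-fold lower in DU145-Esrrb than in DU145-pc3.1 (log2 fold change -1.18, SE 0.18). It was 3.92-fold higher with DY131 in DU145-Esrrb cells (log2 1.97, SE 0.18) and 2.12-fold higher with DY131 in DU145-pc3.1 cells (log2 1.08, SE 0.15). The latter value rested on 2 unlike libraries, since it was 0.71 without the second treated replicate and 1.40 without the first. The difference between the DY131 responses of the pools was 0.89 (log2, SE 0.24), and it was 1.26 and 0.57 without the same libraries. With DY131 in both pools, TAGLN differed by -0.29 (log2, SE 0.15) between DU145-Esrrb and DU145-pc3.1, and this became 0.08 without the second treated DU145-pc3.1 replicate. The junction share of TAGLN was 13.7%, near the middle of the tested genes, of which 48.1% had a lower one.

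Part of the TAGLN transcript, 446 of its 1477 exonic bases, lies opposite exons of PCSK7, a proprotein convertase gene. The library kit keeps strand, but whether the counting used it is not stated, so reads from this stretch may have been given to either gene. PCSK7 was at 71.3 and 71.1 cpm in DU145-pc3.1, 72.9 and 72.4 in DU145-Esrrb, 91 and 91.9 in DU145-pc3.1 with DY131, and 91.1 and 92.4 in DU145-Esrrb with DY131. It therefore did not show the low level of TAGLN in DU145-Esrrb cells, while both its treated groups lay above both untreated ones. Its log2 fold change was 0.03 with Esrrb and 0.34 with DY131 in DU145-Esrrb cells.

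**Figure D1:**
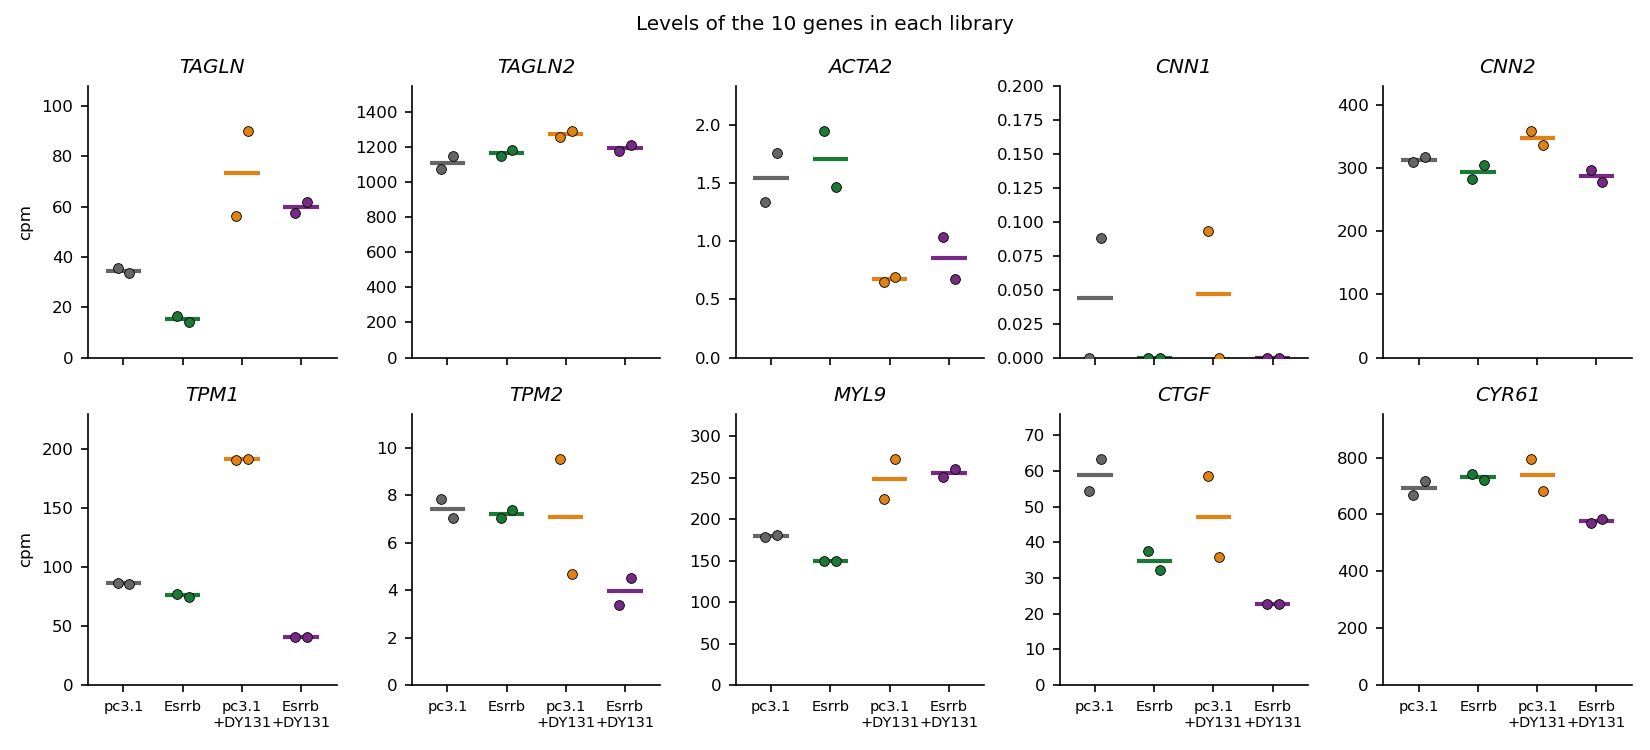
Levels of the 10 genes in each library, in cpm on a linear axis from 0 that differs between panels; each point is 1 of the 2 libraries of a group and each bar is the mean of the group. TAGLN is lowest in DU145-Esrrb (16.3 and 14.1 cpm), TPM1 is highest in DU145-pc3.1 with DY131 (191 and 192 cpm) and lowest in DU145-Esrrb with DY131 (40.5 and 40.4 cpm), and CNN1 has at most 1 read in a library.

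The other genes are described by role, first the actin and its binding proteins that are closest to TAGLN. The test was edgeR's quasi-likelihood test, and p was adjusted after Benjamini-Hochberg over all 13856 genes that passed the filter on low counts. Genes are named as called where the adjusted p was under 0.05 and the change at least 2-fold. All 10 genes were in the table, and 9 passed the filter of 1 cpm in at least 2 libraries, which leaves 8 to test beside TAGLN.

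TAGLN2 encodes transgelin 2, the form of transgelin found outside muscle. It was at 1075 and 1152 cpm in DU145-pc3.1, 1152 and 1187 in DU145-Esrrb, 1259 and 1292 in DU145-pc3.1 with DY131, and 1182 and 1215 in DU145-Esrrb with DY131. Per kilobase of transcript, TAGLN2 stood at 694 cpm in DU145-pc3.1 against 23.3 cpm for TAGLN, so transgelin 2 was the more abundant of both transcripts. TAGLN2 rose with DY131 in DU145-pc3.1 cells by 0.20 on the log2 scale (SE 0.06, adjusted p = 0.0128), although not without the first DU145-pc3.1 replicate (0.15, adjusted p = 0.131). It did not pass the test with Esrrb (log2 0.07, SE 0.06, adjusted p = 0.588) or with DY131 in DU145-Esrrb cells (log2 0.04, SE 0.06, adjusted p = 0.611). Of its windows, 9.32% are found in other genes, most of them in the pseudogene TAGLN2P1, so a part of its reads is of uncertain origin.

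CNN2, calponin 2, is the calponin of non-muscle cells and carries the CArG box printed above. It was at 310 and 318 cpm in DU145-pc3.1, 284 and 305 in DU145-Esrrb, 359 and 337 in DU145-pc3.1 with DY131, and 297 and 278 in DU145-Esrrb with DY131. Only the comparison of the DY131-treated pools passed the test, with CNN2 lower in DU145-Esrrb by a log2 value of -0.28 (SE 0.06, adjusted p = 0.00145), or -0.31 (adjusted p = 9.96e-04) when corrected for the junction share. CNN1, calponin 1 of smooth muscle, had 1 read in 1 DU145-pc3.1 library and 1 read in 1 DY131-treated DU145-pc3.1 library and none in the other 6 libraries, so no change was detectable at this depth.

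ACTA2, smooth muscle alpha actin, was close to the detection limit, with between 6 and 23 reads in a library. It was at 1.34 and 1.76 cpm in DU145-pc3.1, 1.95 and 1.47 in DU145-Esrrb, 0.654 and 0.694 in DU145-pc3.1 with DY131, and 1.04 and 0.678 in DU145-Esrrb with DY131. The treated libraries all lay below the untreated ones, which is the opposite order to TAGLN. ACTA2 was called lower with DY131 in DU145-pc3.1 cells (log2 -1.19, SE 0.43, adjusted p = 0.0394). This call was lost with DESeq2 (adjusted p = 0.234) and without either replicate of DU145-pc3.1 or of its treated form (adjusted p from 0.0626 to 0.209). ACTA2 reached 1 cpm in the 4 untreated libraries and in only 1 treated library, so it passed the filter through the groups in which it was higher, and its call is not counted as support for a change. With DY131 in DU145-Esrrb cells the value was -1.01 (log2, SE 0.42, adjusted p = 0.0516), or -0.70 (adjusted p = 0.18) when corrected for the junction share. Of its exonic bases, 516 of 1349 lie opposite the antisense gene ACTA2-AS1.

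The tropomyosins, which lie along actin filaments and gate the access of myosin, gave results unlike those of TAGLN. TPM1 (chr15:63042632-63071915 in GRCh38, plus strand) was at 86.7 and 86.1 cpm in DU145-pc3.1, 77.1 and 74.9 in DU145-Esrrb, 191 and 192 in DU145-pc3.1 with DY131, and 40.5 and 40.4 in DU145-Esrrb with DY131. The replicates were close and no libraries of different groups overlapped. TPM1 rose 2.22-fold with DY131 in DU145-pc3.1 cells (log2 1.15, SE 0.06, adjusted p = 3.14e-09), as TAGLN did. In DU145-Esrrb cells it fell with DY131 (log2 -0.91, SE 0.07, adjusted p = 4.03e-08), where TAGLN was higher. With DY131 in both pools, TPM1 was 4.74-fold lower in DU145-Esrrb (log2 -2.24, SE 0.07, adjusted p = 1.55e-12). The difference between the DY131 responses of the pools was -2.06 (log2, SE 0.09, adjusted p = 2.99e-10). Without DY131, the Esrrb effect of -0.19 (log2, SE 0.06) did not pass the test (adjusted p = 0.117).

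The junction share of TPM1 was 35.4%, higher than in 95.1% of the tested genes, and it is the member most exposed to the property of the treated DU145-Esrrb libraries. Corrected for it, the fall with DY131 in DU145-Esrrb cells was smaller, at -0.42 (log2, SE 0.07, adjusted p = 1.07e-04), the log2 difference between the treated pools was -1.73 (SE 0.07, adjusted p = 3.01e-11), and the difference between the responses was -1.57 (SE 0.09, adjusted p = 1.16e-08). The direction of these changes and their side of the threshold on adjusted p stayed as they were, while the size of the fall changed by more than 1.5 times on the log2 scale. TPM1 has many spliced forms, which the counts per gene do not separate.

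TPM2 was expressed at a lower level, at 7.82 and 7.04 cpm in DU145-pc3.1, 7.05 and 7.36 in DU145-Esrrb, 9.53 and 4.66 in DU145-pc3.1 with DY131, and 3.39 and 4.52 in DU145-Esrrb with DY131. The treated DU145-Esrrb libraries lay below all others. TPM2 fell with DY131 in DU145-Esrrb cells (log2 -0.85, SE 0.29, adjusted p = 0.0196), and this no longer passed the test after correction for its junction share of 29.2% (log2 -0.56, adjusted p = 0.12), after correction for length and GC content (-0.62, adjusted p = 0.0778), or without either DU145-Esrrb replicate or library a of the treated ones (adjusted p from 0.0521 to 0.152). The difference between the pools with DY131 (log2 -0.84, SE 0.29, adjusted p = 0.0261) came to -0.24 (adjusted p = 0.498) without the first treated DU145-pc3.1 replicate and to -0.51 (adjusted p = 0.186) after correction for the junction share. It also missed the threshold without library a or b of the treated DU145-Esrrb cells (adjusted p = 0.177 and 0.0562), with DESeq2 (0.0525) and with only the 4 libraries compared (0.0551). In the other comparisons TPM2 did not pass the test.

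MYL9, the regulatory light chain through which myosin contraction is switched on, was the member whose levels went most closely with those of TAGLN. It was at 179 and 181 cpm in DU145-pc3.1, 150 and 150 in DU145-Esrrb, 224 and 273 in DU145-pc3.1 with DY131, and 251 and 261 in DU145-Esrrb with DY131. As with TAGLN, DU145-Esrrb was lowest, both treated groups lay above both untreated ones and only the treated groups overlapped. MYL9 rose with DY131 in DU145-Esrrb cells (log2 0.77, SE 0.08, adjusted p = 5.55e-07) and in DU145-pc3.1 cells (log2 0.47, SE 0.07, adjusted p = 1.71e-04). Its Esrrb effect of -0.26 (log2, SE 0.08) missed the threshold with an adjusted p of 0.0697, and passed it in 7 of 19 alternative settings, among them edgeR's exact test (adjusted p = 0.0355), with values between -0.27 and -0.24 in all 19. The 1.2-fold difference compares with 2.26-fold for TAGLN. The DY131 response of MYL9 was larger in DU145-Esrrb cells by 0.30 (log2, SE 0.11, adjusted p = 0.0383), but by 0.08 (adjusted p = 0.613) after correction for the junction share, which is low in MYL9 at 5.3%. This difference also missed the threshold with DESeq2 and without any 1 library except the second treated DU145-pc3.1 replicate. With that correction the rise in DU145-Esrrb cells was 0.55 (log2, adjusted p = 1.07e-05).

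CTGF and CYR61 encode secreted matricellular proteins and are targets of YAP and of SRF. CTGF was at 54.4 and 63.4 cpm in DU145-pc3.1, 37.5 and 32.1 in DU145-Esrrb, 58.5 and 35.8 in DU145-pc3.1 with DY131, and 22.6 and 22.7 in DU145-Esrrb with DY131. Both DU145-Esrrb groups lay below the DU145-pc3.1 group without DY131, and the treated one was lowest of all. CTGF shared the lower level of TAGLN in DU145-Esrrb (log2 -0.76, SE 0.16, adjusted p = 0.0113), but this was lost with DESeq2 (adjusted p = 0.159) and without the second DU145-pc3.1 replicate or either DU145-Esrrb replicate (adjusted p from 0.0518 to 0.154). With DY131 it moved in the direction opposite to TAGLN, falling in DU145-Esrrb cells (log2 -0.62, SE 0.18, adjusted p = 0.00888), or by a corrected value of -0.78 (adjusted p = 0.00296). That fall missed the threshold with DESeq2 (adjusted p = 0.0576) and without the first DU145-Esrrb replicate or either treated library (adjusted p from 0.0587 to 0.0725). With DY131 in both pools, CTGF was called lower in DU145-Esrrb (log2 -1.06, SE 0.18, adjusted p = 1.64e-04), with a corrected value of -1.21 (adjusted p = 1.10e-04), or by -0.67 without the first treated DU145-pc3.1 replicate, which is under 2-fold. The DY131 change in DU145-pc3.1 cells also turned on that library, with -0.32 (log2, adjusted p = 0.114) for both replicates and -0.71 (adjusted p = 1.96e-06) without it.

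CYR61 was at 669 and 717 cpm in DU145-pc3.1, 742 and 720 in DU145-Esrrb, 796 and 683 in DU145-pc3.1 with DY131, and 570 and 585 in DU145-Esrrb with DY131. The treated DU145-Esrrb libraries were the lowest and the other groups lay close together. CYR61 fell with DY131 in DU145-Esrrb cells (log2 -0.34, SE 0.07, adjusted p = 5.71e-04), by a corrected value of -0.50 (adjusted p = 3.88e-05). Neither Esrrb alone (log2 0.08, SE 0.07, adjusted p = 0.63) nor DY131 in DU145-pc3.1 cells (log2 0.09, SE 0.07, adjusted p = 0.303) passed the test. The DY131 responses of the pools differed by -0.43 (log2, SE 0.10, adjusted p = 0.00317), with a corrected value of -0.58 (adjusted p = 8.43e-04).

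**Figure D2:**
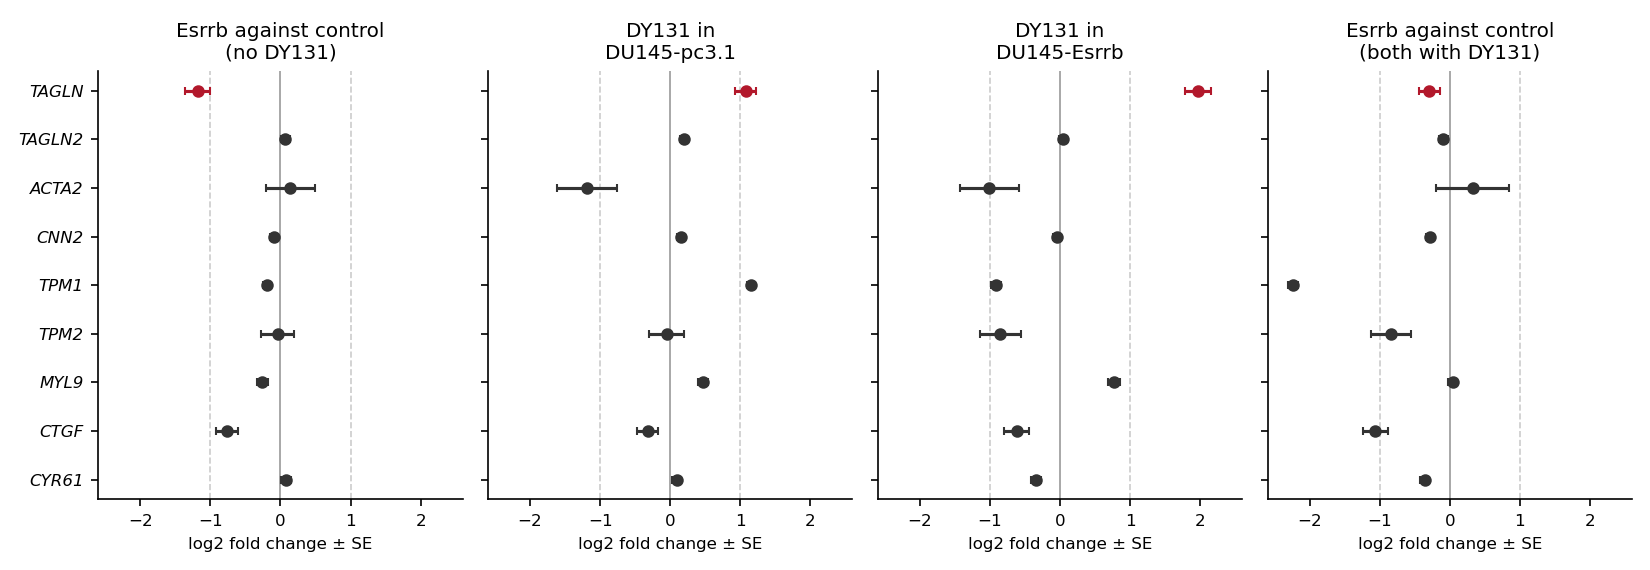
Log2 fold change of the 9 tested genes in 4 comparisons, each point with its standard error from the edgeR fit; dashed lines mark a 2-fold change and TAGLN, shown without a test, is in red. With DY131 in DU145-Esrrb cells TAGLN is at 1.97 and MYL9 at 0.77, while TPM1, TPM2, ACTA2, CTGF and CYR61 lie between -1.01 and -0.34.

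In the comparison of DU145-Esrrb with DU145-pc3.1, 0 of 8 were called by edgeR's quasi-likelihood test, where 0.577% of all tested genes were. The exact test and DESeq2 also called 0, 3 of the 8 had an unadjusted p under 0.05, against 16.6% of all genes, and 1, CTGF, had an adjusted p under 0.05, against 4.18% of all genes. With DY131 in DU145-pc3.1 cells, 4.19% of all genes were called, among them TPM1, which was higher. ACTA2 was called lower there but is left out of the count, since it passed the filter through the untreated libraries. Without the fold threshold TPM1, MYL9 and TAGLN2 rose, where 37.4% of all genes changed. With DY131 in DU145-Esrrb cells, 0 of 8 were called, against 12.0% of all genes, and 0 by the exact test and DESeq2, while 6, ACTA2 among them, had an unadjusted p under 0.05, against 62.9%. By adjusted p alone, 1 rose, MYL9, and 4 fell, TPM1, TPM2, CTGF and CYR61, where 58.7% of all tested genes changed, with 29.2% rising and 29.5% falling. The median log2 value of all 8 tested members, ACTA2 among them, was -0.48 in this comparison, against 0.00 over all tested genes. Without ACTA2, the middle value was that of CYR61, -0.34. With DY131 in both pools, 2 of 8 were called lower in DU145-Esrrb, TPM1 and CTGF, against 8.21% of genes called in either direction, and 5 of 8 were lower by adjusted p alone, against 50.4% changed in either direction. The test of the difference between the DY131 responses called 1 of 8, TPM1, against 6.28%, and passed 3 by adjusted p alone, against 33.7%.

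The wider set of actin and contractile genes was examined in a list of 37 genes, of which 32 were tested. With Esrrb alone, 2 rose, 1 fell and 29 did not pass the test, where 4.18% of all tested genes passed. By edgeR's quasi-likelihood test, the exact test or DESeq2, 0 were called, against 0.577% of all genes by the first, with 7 of the 32 at an unadjusted p under 0.05, against 16.6%. With DY131, 17 rose and 2 fell in DU145-pc3.1 cells, where 18.9% of all tested genes rose and 18.5% fell. In DU145-Esrrb cells 19 rose and 4 fell, where 29.2% of all genes rose and 29.5% fell. The list had a median log2 value of 0.20 in DU145-pc3.1 cells and 0.29 in DU145-Esrrb cells, or 0.36 when corrected for the junction share, beside 0.00 over all genes. The changes were mostly below 2-fold, and 1 gene of the list was called in each pool, against 4.19% and 12.0% of all genes. SMTN, smoothelin, was called in DU145-pc3.1 cells (log2 1.10, SE 0.10, adjusted p = 1.54e-06), with 28.5 and 31.4 cpm untreated and 71.6 and 57.3 cpm treated. It also rose in DU145-Esrrb cells, from 37.9 and 41.7 cpm to 66.9 and 71 cpm (log2 0.79, SE 0.10, adjusted p = 7.48e-06), with a corrected value of 1.14, and the difference of the responses did not pass the test (-0.31, SE 0.15, adjusted p = 0.114). FLNC, the actin cross-linker filamin C, was called in DU145-Esrrb cells (log2 1.03, SE 0.08, adjusted p = 4.29e-08), with 334 and 324 cpm untreated and 671 and 676 cpm treated and a corrected value of 1.21. In DU145-pc3.1 cells FLNC rose from 330 and 318 cpm to 541 and 434 cpm (log2 0.59, SE 0.08, adjusted p = 3.79e-05), which is below 2-fold. ACTC1, cardiac alpha actin, was called in the comparison of the treated pools, at 1.59 and 1.79 cpm in DU145-pc3.1 and 3.91 and 4.97 cpm in DU145-Esrrb, a level of few reads.

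The cytoplasmic actins ACTB and ACTG1 and the tropomyosins TPM3 and TPM4, named after their values were seen, rose with DY131 in both pools. ACTB, beta actin, was at 4790 and 4860 cpm in DU145-pc3.1, 4694 and 4979 in DU145-Esrrb, 6352 and 6841 in DU145-pc3.1 with DY131, and 8913 and 9042 in DU145-Esrrb with DY131. Treated libraries were thus higher in both pools and highest in DU145-Esrrb, with log2 fold changes of 0.45 (SE 0.06, adjusted p = 4.14e-05) and 0.89 (SE 0.06, adjusted p = 1.37e-08). TPM3 and TPM4 rose in DU145-Esrrb cells by 0.61 and 0.65 on the log2 scale (adjusted p = 6.41e-07 and 9.51e-07), the comparison in which TPM1 and TPM2 fell. Corrected for the junction share, TPM3 and TPM4 stood at 0.65 and 0.66 there and TPM1 at -0.42. Of their windows, 10.9% in ACTB, 10.6% in TPM3 and 22.9% in TPM4 are found in other genes, so their levels are less certain.

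Targets of SRF and the MRTF factors were listed as 39 genes, of which 35 were tested and several are also contractile genes of the list above. With Esrrb, 1 rose and 2 fell, against 4.18% of all genes changed, and 0 were called by any of the 3 tests, with 7 at an unadjusted p under 0.05, against 16.6%. With DY131, 16 rose and 7 fell in DU145-pc3.1 cells, beside 18.9% and 18.5% of all genes, and 16 rose and 8 fell in DU145-Esrrb cells, beside 29.2% and 29.5%. The genes called were all lower, 3 in DU145-pc3.1 cells and 4 in DU145-Esrrb cells, against 3.16% and 9.04% of all tested genes called lower. FOS, EGR1 and JUNB, called in both pools, are immediate early genes, which encode short-lived transcription factors. FOS was at 39.9 and 25.3 cpm in DU145-pc3.1, 43.5 and 29.7 in DU145-Esrrb, 3.55 and 2.78 in DU145-pc3.1 with DY131, and 3.91 and 3.5 in DU145-Esrrb with DY131. It fell to about the same level in both pools, with log2 fold changes of -3.35 (SE 0.27, adjusted p = 3.68e-07) and -3.31 (SE 0.27, adjusted p = 8.72e-08). EGR1 fell by 2.20 and 2.59 on the log2 scale and JUNB by 1.08 in either pool, with adjusted p of at most 2.46e-07 in DU145-pc3.1 cells and at most 3.78e-08 in DU145-Esrrb cells. The fourth gene, GSN, the actin-severing protein gelsolin, fell from 59.8 and 45.7 cpm to 25.8 and 26.6 cpm in DU145-Esrrb cells (log2 -1.01, SE 0.12, adjusted p = 4.18e-06), and the corrected value of -0.69 (adjusted p = 2.49e-04) was below 2-fold, so that it was no longer called.

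Targets of YAP and TAZ were listed as 20 genes beside CTGF and CYR61, of which 19 were tested. With Esrrb, 3 rose and 1 fell, beside 4.18% of all genes, and the 1 called was IGFBP3, beside 0.577%. With DY131, 9 rose and 2 fell in DU145-pc3.1 cells and 7 rose and 7 fell in DU145-Esrrb cells, beside 37.4% and 58.7% of all genes changed, with 0 called in either by the 3 tests and 13 and 14 at an unadjusted p under 0.05, against 46.4% and 62.9% of all genes. The test of the difference between the pools passed for 10 of the 19, of which 9 had the lower response in DU145-Esrrb cells, or 8 of 8 after correction for the junction share. Over all tested genes, 17.6% had a lower and 16.1% a higher response in DU145-Esrrb cells by the same test. IGFBP3, a secreted binding protein of insulin-like growth factors, was at 106 and 108 cpm in DU145-pc3.1, 42.4 and 44.1 in DU145-Esrrb, 185 and 195 in DU145-pc3.1 with DY131, and 23.6 and 24.3 in DU145-Esrrb with DY131. No groups overlapped. IGFBP3 was lower with Esrrb (log2 -1.31, SE 0.07, adjusted p = 6.04e-09), as TAGLN was. It rose with DY131 in DU145-pc3.1 cells (log2 0.83, SE 0.06, adjusted p = 1.54e-07) and fell in DU145-Esrrb cells (log2 -0.85, SE 0.08, adjusted p = 5.42e-07), the order found for TPM1, and the responses differed by -1.68 (SE 0.10, adjusted p = 1.42e-08). With a junction share of 8.86%, its corrected difference was larger, at -1.82. MYOF, a membrane repair protein, and AXL, a receptor tyrosine kinase, both named after their values were seen, fell with DY131 in DU145-Esrrb cells by 0.77 and 0.59 on the log2 scale (adjusted p = 2.03e-08 and 6.84e-07). Corrected for the junction share, the values were -0.21 and -0.33 (adjusted p = 0.00434 and 2.38e-04). Other genes of the list rose in this comparison, where 7 rose and 7 fell, or 5 and 7 after the correction. Among those that rose, also named after their values were seen, the mean of ANKRD1 went from 50.3 to 63.3 cpm and that of NT5E from 303 to 467 cpm. Their corrected log2 values were 0.43 and 0.47 (adjusted p = 2.42e-04 and 1.15e-05).

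Regulators of the SRF and YAP pathways were listed as 36 genes, of which 33 were tested. With Esrrb, 1 fell, DIAPH1, beside 4.18% of all genes changed, and 0 were called by any of the 3 tests, with 4 at an unadjusted p under 0.05, beside 16.6%. With DY131, 14 rose and 6 fell in DU145-pc3.1 cells and 15 rose and 6 fell in DU145-Esrrb cells, beside 37.4% and 58.7% of all genes changed. In either pool 0 were called by the 3 tests, beside 4.19% and 12.0% of all genes, with 20 and 23 at an unadjusted p under 0.05, beside 46.4% and 62.9%. The values of SRF, YAP1 and MKL2 were seen before these genes were named. SRF itself did not pass the test in either pool (log2 0.10, adjusted p = 0.42, and 0.19, adjusted p = 0.0784). YAP1 rose in both, by 0.21 (adjusted p = 0.00963) and 0.48 (adjusted p = 3.86e-06), and MKL2, which encodes an MRTF, rose by 0.46 and 0.66 (adjusted p = 0.00203 and 4.84e-05). The corrected values in DU145-Esrrb cells were 0.00 for SRF, 0.30 for YAP1 and 0.50 for MKL2 (adjusted p = 0.974, 2.58e-04 and 8.49e-04). MKL1, another MRTF gene, had corrected values of 0.11 in DU145-pc3.1 and 0.30 in DU145-Esrrb cells (adjusted p = 0.464 and 0.0438). Among the genes that fell, LATS2 had corrected values of -0.30 and -0.47 in the same order, and SAV1 of -0.20 and -0.33. LIMK2, a kinase that stabilizes actin filaments by phosphorylating cofilin, was at 12.8 and 14.6 cpm in DU145-pc3.1 with DY131 and at 4.17 and 6.22 in DU145-Esrrb with DY131. The difference of its DY131 response between the pools was -1.15 (log2, SE 0.25, adjusted p = 0.00241), and -0.94 (adjusted p = 0.0137) when corrected for its junction share of 25%.

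**Figure D3:**
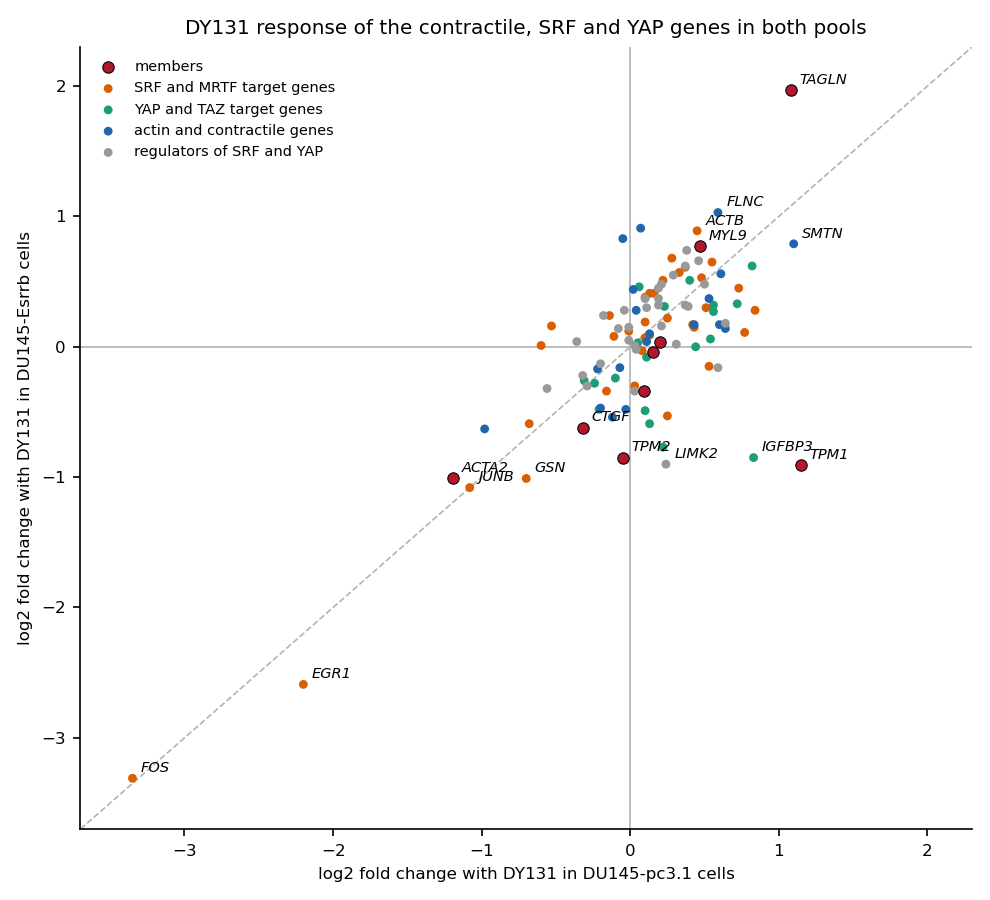
Log2 fold change with DY131 in DU145-pc3.1 cells (x axis) and in DU145-Esrrb cells (y axis) for the tested genes of the 10 and of the 4 lists; each point is 1 gene and the dashed line marks equal responses. FOS, EGR1 and JUNB lie low near the line, TAGLN lies above it at 1.08 and 1.97, and TPM1 and IGFBP3 lie at the lower right with responses of opposite sign.

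The pattern by which TAGLN was chosen, lower with Esrrb and higher with DY131 in DU145-Esrrb cells, each at an adjusted p under 0.05, was met by 123 of 13856 tested genes, or 0.888%. These comparisons share the DU145-Esrrb libraries, so a low value there moves both. Among the 112 tested genes of the 4 lists and the members other than TAGLN, 1 met it, or 0.893%. Corrected for the junction share, 120 of all genes (0.866%) and 3 of the 112 (2.68%) met it, the 3 being DIAPH1, MYL9 and PDLIM7. MYL9 then passed the test with Esrrb (log2 -0.26, adjusted p = 0.0456), and PDLIM7, a PDZ and LIM domain protein named after its values were seen, turned from -0.15 (adjusted p = 0.105) to 0.30 (adjusted p = 0.00355) with DY131 in DU145-Esrrb cells. The 1 met without correction was DIAPH1, a formin that polymerizes actin downstream of RHOA. DIAPH1 was at 234 and 221 cpm in DU145-pc3.1, 192 and 190 in DU145-Esrrb, 357 and 351 in DU145-pc3.1 with DY131, and 215 and 216 in DU145-Esrrb with DY131. Its changes were small in DU145-Esrrb cells, at -0.25 with Esrrb (log2, SE 0.06, adjusted p = 0.0165) and 0.18 with DY131 (SE 0.06, adjusted p = 0.014), or 0.40 (adjusted p = 1.90e-05) when corrected. DIAPH1 was higher in the treated DU145-pc3.1 than in the treated DU145-Esrrb libraries without overlap. TAGLN had its higher mean there too, but its treated libraries overlapped.

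Likeness to TAGLN was also measured as Pearson's r of log2 cpm over the 8 libraries, which fall into 4 groups, so that r reflects mainly the 4 group levels. MYL9 had r = 0.96, the 15th highest of 13855 genes. TAGLN2 had 0.54, CNN2 0.37, TPM1 0.21, CTGF -0.14, CYR61 -0.41, TPM2 -0.49 and ACTA2 -0.83. Among the 2635 genes whose group means spanned at least 1 log2 unit, the 5 closest were PLAGL1, a zinc finger transcription factor (r = 0.97), EIF4EBP3, a translation repressor (0.95), TRIM7, an E3 ubiquitin ligase (0.95), PKI55 (0.94) and LOC100287314 (0.94). PLAGL1 was at 33.4 and 33.7 cpm in DU145-pc3.1, 19.7 and 20.5 in DU145-Esrrb, 42.1 and 43.5 in DU145-pc3.1 with DY131, and 42.4 and 39.2 in DU145-Esrrb with DY131. Its group means took the same order as those of TAGLN, with DU145-Esrrb lowest and the treated groups overlapping. The 5 genes were picked by their r with TAGLN in these same libraries, so a shared order follows from the choice. EIF4EBP3, PKI55 and LOC100287314 were at or below 8.97 cpm in every library, and TRIM7 was at between 8.23 and 18.5 cpm.

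**Figure D4:**
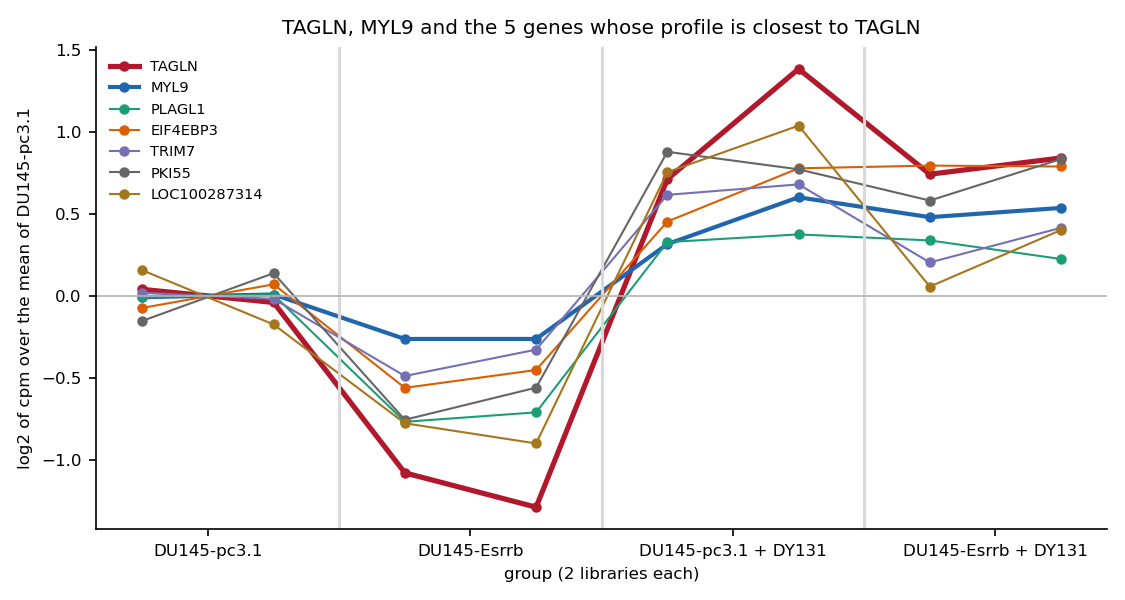
Log2 of cpm relative to the mean of DU145-pc3.1 in each of the 8 libraries, for TAGLN, MYL9 and the 5 genes closest to TAGLN in profile; lines only join the points of a gene, and the libraries of a group have no order. All 7 genes are lowest in DU145-Esrrb, which for the 5 follows from how they were picked, and MYL9 (150 cpm there, against 179 and 181 in DU145-pc3.1) spans a smaller range than TAGLN.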

How the data were processed

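RNA-Seq was done on 8 libraries of stranded mRNA, 2 for each of 4 groups, all run in 1 lane. The authors cleaned the 50-base single reads with FASTX-Toolkit, aligned them by TopHat2 on hg18, and deposited raw, unscaled counts per gene made by their program MULTICOM-MAP. How strand and multiply mapped reads were treated is not given in the sources used here. Each library held between 7858743 and 11551690 counted reads, which limits the precision for genes of a few cpm. Date-like strings stood in place of 28 symbols and were kept. No column of the table was left unused. The columns of DY131-treated DU145-Esrrb cells share 1 heading, so these libraries are called a and b.

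The 13856 genes that reached 1 cpm in 2 or more libraries were scaled with TMM and fitted in 1 model of 4 groups with edgeR 4.0.16 (R 4.3.3). The quasi-likelihood F test with Benjamini-Hochberg adjustment over all tested genes was used for 5 comparisons, and calls needed an adjusted p under 0.05 together with a log2 change of 1 or more in size. The standard error of a log2 fold change was taken from the fold change and its F value. The p-values rest on the spread between 2 libraries a group. Since transfectants were pooled, this spread may not cover that between separately transfected populations. The authors' pairwise exact test and DESeq2 1.42.0 were alternatives, along with other scaling, other filters, fewer libraries, a replicate block and corrections for transcript length and GC content and for the junction share. Transcript structure and gene positions came from GENCODE 29 on GRCh38 and not from hg18. RefSeq identifiers placed 22018 genes in it, symbols 721 and older symbols 154, while 498 found no match. A junction value was at hand for 98.6% of the tested genes. Python 3.11.15 with numpy 2.4.6, pandas 2.3.3, scipy 1.17.1 and matplotlib 3.10.9 was used for summaries.

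The members, the 4 gene lists and the marker lists were chosen with earlier results of these data known. Beside the members, the genes named are those called in each list and comparison, at most 3 in each direction, and the 5 with the highest r to TAGLN; others were named after their values were seen. On simulated counts for 13657 genes, in which DY131 changed 200 by 4-fold in the DU145-pc3.1 libraries, the quasi-likelihood test recovered 198 with 2 false calls, the exact test 198 with 4, and DESeq2 196 with 0. For the interaction, 197 of 200 were recovered with 5 false calls among 13650 genes. In both simulations the changed genes averaged above 2 cpm, and changes smaller than 4-fold were not simulated. The recovery therefore does not describe smaller changes or genes at lower levels. With a simulated junction bias and no change, in 13678 genes for DY131 in DU145-Esrrb cells, 493 genes were called without and 0 with the correction. This bias was built from the same junction share that the correction uses. It therefore checks only that the correction works as written, and not how well it suits the measured genes.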

Additional observations from a re-analysis of the deposited data

Results flagged for a closer look

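The test of the difference between the DY131 responses of DU145-Esrrb and DU145-pc3.1 cells passed an adjusted p under 0.05 for 3 members other than TAGLN, and called 2 further genes of the lists at 2-fold. The difference, as log2 fold change in DU145-Esrrb minus that in DU145-pc3.1 cells, was -2.06 for TPM1, -1.68 for IGFBP3, -1.15 for LIMK2, -0.43 for CYR61 and 0.30 for MYL9. Corrected for the junction share, the values were -1.57, -1.82, -0.94, -0.58 and 0.08 in the same order, with MYL9 no longer past the threshold (adjusted p = 0.613). MYL9 also missed it with DESeq2 (adjusted p = 0.0639) and without any 1 library except the second treated DU145-pc3.1 replicate (adjusted p from 0.0865 to 0.155). Groups of 2 libraries are too small to look for single outlying samples.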

How the results depend on the processing

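In the comparison of DU145-Esrrb with DU145-pc3.1, 0 members other than TAGLN were called under any change of test, scaling, filter, library or correction, and 1, CTGF, at 1.5-fold or with no fold threshold. For DY131 in DU145-pc3.1 cells, 2 were called, but 1 with a filter of 5 cpm, with DESeq2, with only the 4 libraries compared and with the correction for length and GC content, 1 to 2 with a library left out, and 4 with no fold threshold. For DY131 in DU145-Esrrb cells, 0 were called, but 1 with library size alone or only the 4 libraries compared, 0 to 1 with a library left out, 4 at 1.5-fold and 5 with no fold threshold. For the treated pools, 2 were called, 1 to 3 with a library left out and 5 with no fold threshold. For the difference between the DY131 responses, 1 was called, 1 to 2 with a library left out and 3 with no fold threshold. ACTA2, TPM2 and CTGF account for these changes in the members called at 2-fold. The counts in this paragraph include ACTA2, whose call for DY131 in DU145-pc3.1 cells was left out of the count above.

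The DY131-treated DU145-pc3.1 replicates differed most in effect. Without the first or the second of them, the difference between the DY131 responses of CTGF was 0.08 (adjusted p = 0.704) or -0.61 (adjusted p = 8.56e-04), TPM2 changed with DY131 in DU145-pc3.1 cells by -0.66 (adjusted p = 0.0252) or 0.36 (adjusted p = 0.136), and MYL9 differed between the treated pools by -0.11 (adjusted p = 0.114) or 0.19 (adjusted p = 0.00531). Without the second, the difference between the responses was -1.21 for TPM2 (adjusted p = 0.00104) and -0.23 for CNN2 (adjusted p = 0.0141), CYR61 rose with DY131 in DU145-pc3.1 cells (0.20, adjusted p = 0.00263), and TAGLN differed between the treated pools by 0.08. Without the first, CYR61 changed by -0.01 in DU145-pc3.1 cells and TAGLN differed between the treated pools by -0.60.

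The other log2 fold changes that turned their direction were small. With Esrrb, ACTA2 was at -0.03 and -0.08 and TPM2 at 0.03 with 1 library left out (ranges -0.08 to 0.36 and -0.12 to 0.03). With DY131 in DU145-pc3.1 cells, TPM2 was at 0.03 without the first DU145-pc3.1 replicate and at 0.10 with the correction for length and GC content. With DY131 in DU145-Esrrb cells, TAGLN2 was at -0.03 with library size alone and also with the correction for the junction share, and CNN2 at 0.01 with either of 2 libraries left out (range -0.09 to 0.01) and at 0.12 with the correction for length and GC content. MYL9 differed between the treated pools by -0.18 with the correction for the junction share (adjusted p = 0.0431). The difference between the responses of ACTA2 was at -0.03, -0.01 and -0.14 with 1 library left out (range -0.14 to 0.47). The cause of these changes was not tested.

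The replicate number of the sample titles was used as a block in the 6 libraries that carry one. Libraries with the same number in their titles did not deviate together (r = 0.0917, 0.0229 and -0.0685 for the 3 pairs of groups). The column headings of the counts number some untreated replicates differently. The block and this check therefore hold only for the pairing by title, and other pairings were not tested. With the block, 0 members were called for Esrrb and 1 for DY131 in DU145-pc3.1 cells, where ACTA2 was at an adjusted p of 0.0609.

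Over all genes, a filter of 5 cpm left 11655 to test and called 43 in place of 80 for Esrrb, 288 in place of 580 for DY131 in DU145-pc3.1 cells, 1024 in place of 1666 for DY131 in DU145-Esrrb cells and 701 in place of 1137 between the treated pools. For Esrrb, DESeq2 called 48, and leaving out a library gave 46 to 126. Depth limits ACTA2, CNN1 and TPM2 most.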
